A study of Mus musculus with 158 samples.

Results

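The sites described here are stretches of the mouse genome where DNase I hypersensitivity was called in lung and in B cells but in neither liver nor kidney. DNase-seq was carried out on whole liver, kidney and lung and on B cells from F1 hybrids of C57BL/6J (B6) females with males of 5 other strains, called B6x129, B6xC3H, B6xCAST, B6xPWK and B6xSPRET, so that the C57BL/6J genome is shared by every group. The B cells came from the femoral marrow of 8-week-old female mice and were enriched by magnetic depletion of cells carrying CD43 or Mac-1, while the solid tissues were whole organs taken at the same age, usually pooled over several mice, that keep their blood, vessel and stromal cells. DHS hotspots, called by the authors at an FDR of 5% on the pooled reads of each hybrid and tissue, gave 20 adult sets, 5 per tissue. B6xCAST mouse embryonic stem cells (mESCs) contributed 1 DNase set and 1 CTCF ChIP-seq set, and RNA-seq covered 17 adult samples.

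Hotspots of the 20 adult sets that overlapped by 1 bp or more were merged on the autosomes into 714403 regions. A region was kept when it held a hotspot in 3 or more of the 5 lung sets, in 3 or more of the 5 B cell sets, and in no liver or kidney set, which left 2783 shared lung and B cell sites. These sites were therefore chosen by the measured hotspot calls of the adult sets, and their presence, width and score in those sets are given as a description, with no test. For comparison, 27905 lung-only and 10333 B cell-only sites met the same requirement in 1 tissue with no hotspot in any set of the other 3, and 39359 sites had a hotspot in 3 or more sets of every tissue.

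DNase I cuts DNA where nucleosomes are displaced, mostly at promoters, enhancers and insulators held open by transcription factors. Lung is made of airway and alveolar epithelium, a dense capillary bed and resident and circulating leukocytes, among them alveolar macrophages, T cells and B cells. Open chromatin in B cells and other leukocytes is known for recognition sequences of ETS factors, in particular PU.1 in myeloid and B cells, and of RUNX factors, while EBF1 and OCT factors act in B cells and NKX2-1, TEAD, NFI, FOX and CEBP factors in lung cells. A whole-organ hotspot does not say which of these cells carried it, and more cells of a type cannot be told apart from more accessible DNA per cell.

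Windows of 300 bp around the stretch covered by most sets show what such a site looks like in mm10 sequence. The Cst11 and Kcna2 sites, named by the nearest protein-coding start, ranked first and second by the lowest score over all 10 lung and B cell sets. The Ccr6 and Irf8 sites lie by genes of lymphocytes and myeloid cells, and the Ythdf2 and Ackr4 sites were the highest-ranked ones with both the PU.1 form of the ETS motif and the RUNX core. The last 4 were chosen after their values were seen. Sequences are those of the forward strand of GRCm38.p6 (mm10) from RefSeq, 5′ to 3′, and capitals mark the ETS core GGAAGT and the RUNX core TGTGGT on either strand.
Cst11 site, chr2:148764144-148764443: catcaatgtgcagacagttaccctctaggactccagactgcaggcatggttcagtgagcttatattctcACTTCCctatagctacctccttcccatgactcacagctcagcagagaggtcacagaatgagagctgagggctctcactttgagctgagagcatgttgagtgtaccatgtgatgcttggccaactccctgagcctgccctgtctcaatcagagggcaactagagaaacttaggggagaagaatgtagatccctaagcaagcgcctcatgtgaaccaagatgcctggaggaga
Kcna2 site, chr3:107076667-107076966: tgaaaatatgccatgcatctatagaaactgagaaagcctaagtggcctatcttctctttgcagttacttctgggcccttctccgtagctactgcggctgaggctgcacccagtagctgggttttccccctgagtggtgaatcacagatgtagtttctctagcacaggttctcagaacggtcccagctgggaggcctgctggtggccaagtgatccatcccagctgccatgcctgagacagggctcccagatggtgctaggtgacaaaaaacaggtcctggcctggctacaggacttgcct
Ccr6 site, chr17:8243606-8243905: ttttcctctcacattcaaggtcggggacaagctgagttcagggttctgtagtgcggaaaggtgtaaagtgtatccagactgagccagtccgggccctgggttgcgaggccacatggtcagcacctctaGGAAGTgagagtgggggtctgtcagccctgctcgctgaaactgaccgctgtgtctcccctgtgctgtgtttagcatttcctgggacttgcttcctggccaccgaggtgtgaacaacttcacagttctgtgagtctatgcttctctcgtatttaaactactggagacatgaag
Irf8 site, chr8:120760295-120760594: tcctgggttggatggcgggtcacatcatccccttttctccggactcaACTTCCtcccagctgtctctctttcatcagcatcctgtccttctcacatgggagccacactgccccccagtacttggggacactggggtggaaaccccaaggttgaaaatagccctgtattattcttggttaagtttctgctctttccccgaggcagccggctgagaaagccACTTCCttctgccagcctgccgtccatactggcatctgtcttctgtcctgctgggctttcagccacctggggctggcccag
Ythdf2 site, chr4:132214855-132215154: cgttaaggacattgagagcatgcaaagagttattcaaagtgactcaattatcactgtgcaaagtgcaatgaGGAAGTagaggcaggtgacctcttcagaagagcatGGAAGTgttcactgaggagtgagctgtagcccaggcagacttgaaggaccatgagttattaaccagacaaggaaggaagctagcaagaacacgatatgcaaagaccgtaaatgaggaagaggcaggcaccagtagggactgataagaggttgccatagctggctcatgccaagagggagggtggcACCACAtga
Ackr4 site, chr9:104098239-104098538: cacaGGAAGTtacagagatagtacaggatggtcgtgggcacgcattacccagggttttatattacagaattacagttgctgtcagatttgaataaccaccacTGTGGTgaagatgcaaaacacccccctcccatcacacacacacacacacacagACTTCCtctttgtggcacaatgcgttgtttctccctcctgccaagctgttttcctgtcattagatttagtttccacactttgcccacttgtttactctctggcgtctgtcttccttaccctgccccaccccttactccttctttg

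The Ccr6 and Cst11 windows held 1 ETS core each, the Irf8 window 2, and the Ythdf2 and Ackr4 windows 2 ETS cores and 1 RUNX core each. The Kcna2 window held neither, as did 829 of the 2783 shared sites (29.8%).

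In the hotspot sets, shared sites had wider hotspots in B cells than in lung, and scored above their own set's median in B cells and below it in lung. Per hybrid, B6x129 had a B cell hotspot at 97.6% of sites and a lung hotspot at 94.6%, and B6xCAST at 99.6% and 96.6%. B6xPWK had 97.8% in B cells and 86.0% in lung, B6xSPRET 77.6% and 70.5%, and B6xC3H 72.7% and 40.3%. B6xC3H was lowest in both tissues and B6xCAST highest, and B6xC3H lung, which also had the fewest autosomal hotspots of the lung sets (147871 against 164864 to 273104), stood apart. It alone was missing at 500 sites that every other lung and B cell set carried. All 10 sets had a hotspot at 473 sites (17.0%).

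The median hotspot width inside the shared sites was 167 to 250 bp over the 5 lung sets and 306 to 488 bp over the 5 B cell sets, and the ranges did not overlap. Over all autosomal hotspots the medians were 233 to 262 bp in lung and 267 to 284 bp in B cells, also without overlap. Against all hotspots of its own set, the median in shared sites was lower in every lung set and higher in every B cell set. Where a hybrid had the site in both tissues, the B cell hotspot was the wider one at 78.9% (B6xSPRET) to 86.3% (B6xCAST) of sites. The same share was not counted over other regions. The authors' −log10 FDR, capped at 100, is read here only within a set, since its size depends on sequencing depth, which is not in the hotspot files. Its median over the hotspots in shared sites was below that of all autosomal hotspots in every lung set, from 2.58 against 3.97 in B6xC3H to 4.95 against 5.46 in B6xCAST. It was above that of all hotspots in every B cell set, from 6.70 against 5.86 in B6xSPRET to 28.6 against 7.17 in B6xCAST. Hotspots at the cap of 100 were nonetheless rarer in shared sites than over all hotspots in 4 of the 5 B cell sets (0.119 to 5.10%, against 5.92 to 12.4%), and more frequent in B6xCAST B cells (18.4% against 13.8%).

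**Figure D1:**
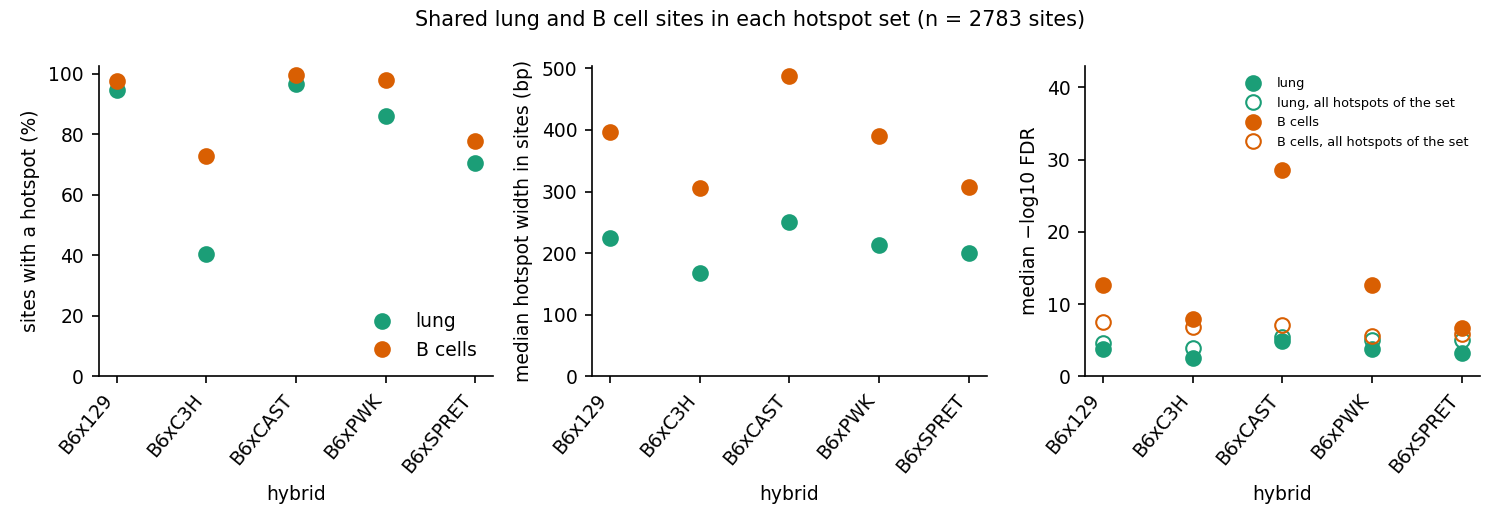
Percentage of the 2783 shared sites with a hotspot (left), median width in bp of the hotspots inside them (middle) and their median −log10 FDR (right, open points: all autosomal hotspots of the same set), by hybrid on the x axis, with 1 filled point per hotspot set for lung (green) and B cells (orange). B cell points lie above the lung point of the same hybrid in the first 2 panels, with B6xC3H lung lowest at 40.3% and 167 bp, and the third is read within a set, where the filled point lies below the open one in all 5 lung sets and above it in all 5 B cell sets.

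Regions lay on both sides of the edge of the rule. Of the 2783 sites, 1066 had a hotspot in exactly 3 lung sets and 512 in exactly 3 B cell sets. Just outside lay 1425 regions with 2 lung sets, 583 with 2 B cell sets, and 1788 with a hotspot in a single liver or kidney set, 1413 of them in liver. The PU.1 form of the ETS motif was held by 15.2% of the sites with exactly 3 lung sets, by 15.9% of the regions with 2, by 14.5% of the sites with exactly 3 B cell sets and 12.9% of the regions with 2, and by 18.1% of those with a single liver or kidney set. Without B6xCAST the number of shared sites was 1610, and without each other hybrid in turn it was 1957 to 2722. When each adult set was cut to its 75000 highest hotspots, 2978 sites met the rule but only 191 of the 2783 members (6.86%) overlapped one of them, so that which sites are members depends on how many hotspots each set holds.

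The labelled tissues carried hotspots at the starts of their marker genes, with some marker genes of other cell types beside them. All 5 lung epithelium markers had a hotspot within 1 kb of a start in every lung set. Of these 5, B cell sets had 0 or 1, liver sets 2 or 3 and kidney sets 0 to 2. Sftpc, the surfactant protein C gene, had none in any B cell, liver or kidney set, while Scgb1a1 and Ager had one in all 5 liver sets. Of 6 B cell markers, the B cell sets had 5 or 6, the lung sets 3 to 5, the liver sets 1 to 5 and the kidney sets 3 or 4. All 3 general leukocyte markers had one in every lung, liver and B cell set and 1 to 3 of them in kidney sets. Of 3 macrophage markers, 2 or 3 had one in lung, liver and B cell sets and 0 or 1 in kidney sets. Of 2 T cell markers, lung sets had 1 or 2, B cell and kidney sets 1 and liver sets 0 to 2. Cd3e had one in 3 lung sets, 1 liver set and no B cell or kidney set. Lck had one in all 5 lung, B cell and kidney sets and in 4 liver sets. All 3 endothelial markers had one in every lung set, and in the purified B cells Cdh5 and Pecam1 had one in all 5 sets and Tie1 in none. All hepatocyte and nephron markers were without a hotspot in the B cell sets. The part of these cell types in the shared sites was not tested.

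Letters of the PU.1 form, the ETS core and the RUNX motifs were more frequent in the shared sites than in either single-tissue class. The motif GAGGAAGT, a form that PU.1 binds, stood in the 300 bp window of 15.2% of shared sites (95% Wilson interval 13.9 to 16.5%), against 3.01% of lung-only sites (2.81 to 3.21%), 12.2% of B cell-only sites (11.5 to 12.8%) and 3.37% of all merged regions. The shorter ETS core GGAAGT, which the longer form contains, stood in 49.0% of shared sites (47.1 to 50.8%), 22.7% of lung-only and 39.9% of B cell-only sites and 22.0% of all regions. Shared sites thus lay above both single-tissue classes, and their intervals did not overlap those classes'. These intervals, and all others here, cover counting error only, and sites are not replicates, so no p is given.

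The RUNX motif TGTGGTTT stood in 9.20% of shared sites (8.18 to 10.3%), 3.60% of lung-only sites, 4.73% of B cell-only sites and 2.70% of all regions. Its core TGTGGT, contained in the longer form, stood in 38.9%, 24.1%, 28.5% and 21.8% of the same classes. Of the other motifs, GGGTGTGG of KLF factors was also more frequent in shared sites (6.29%, 5.45 to 7.25%) than in lung-only (3.99%) and B cell-only sites (3.22%). The ETS core and the RUNX core stood together in 492 shared sites (17.7%, 16.3 to 19.1%), against 5.62% of lung-only, 10.6% of B cell-only and 5.22% of sites of all 4 tissues.

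Both motifs were concentrated at the middle of the site. In the 50 bp just left of the middle, the PU.1 form began in 6.0% of shared, 0.670% of lung-only and 4.71% of B cell-only sites, and at 450 to 500 bp to the right in 0.359%, 0.333% and 0.261%. The RUNX motif began in 3.16%, 0.842% and 1.47% in the same central bin, and in 0.503%, 0.426% and 0.610% in the outer one. In the outer bin the 3 classes lay close together for both motifs.

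**Figure D2:**
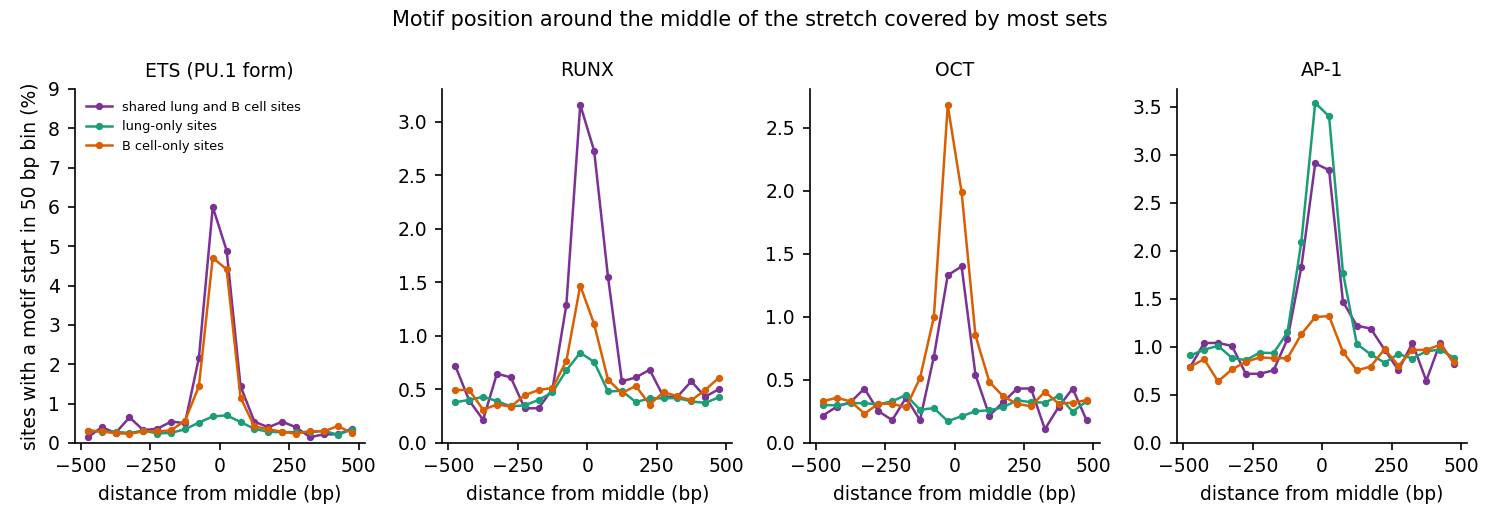
Percentage of sites in which a motif begins in each 50 bp bin, by distance in bp from the middle of the stretch covered by most sets, for shared (purple), lung-only (green) and B cell-only (orange) sites, with a separate y scale per motif. Shared sites peak highest for the PU.1 form (6.0%) and RUNX (3.16%), and lie between the single-tissue classes for OCT and AP-1.

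Motifs of the single tissues stood at middle shares. ATGCAAAT, the octamer of OCT factors, stood in 4.28% of shared sites (3.59 to 5.09%), above 1.38% of lung-only and below 7.16% of B cell-only sites. CCCNNGGGA, the motif of EBF factors, did the same at 5.96% (5.14 to 6.91%), between 3.29% and 8.84%. TGACTCA, the AP-1 motif, stood in 10.5% (9.44 to 11.7%), below 12.1% of lung-only (11.7 to 12.5%) and above 6.09% of B cell-only sites, and its interval met that of lung-only sites at the edge. Motifs of factors that act in lung cells were nearer to the B cell-only than to the lung-only level. CATTCC of TEAD factors stood in 11.5% of shared, 23.6% of lung-only and 11% of B cell-only sites, and TTGGCA of NFI factors in 14.4%, 24.1% and 12.1%. CACTTGA of NKX2 factors stood in 5.89%, 10.1% and 4.17%, TGTTTAC of FOX factors in 5.32%, 8.98% and 3.37%, and TTGCNNAA of CEBP factors in 13.5%, 19.7% and 12%. The intervals of shared and B cell-only sites overlapped for TEAD and CEBP and did not for NFI, NKX2 and FOX. Over all merged regions the shares were 17.6% for TEAD, 20.8% for NFI, 15.0% for CEBP, 5.65% for FOX and 4.86% for NKX2. Shared sites lay below these for TEAD, NFI and CEBP and above for NKX2, and their FOX interval (4.54 to 6.21%) held the value of all regions. For NF-kB, GGGANNTTC stood in 4.20% of shared sites (3.52 to 5.01%), an interval that overlapped those of lung-only (3.40%, 3.19 to 3.62%) and B cell-only sites (4.15%, 3.78 to 4.55%). The stricter form GGGACTTTC stood in 0.719% (0.466 to 1.11%), above lung-only sites (0.287%, 0.230 to 0.357%) with no overlap and overlapping B cell-only sites (0.590%, 0.460 to 0.758%).

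**Figure D3:**
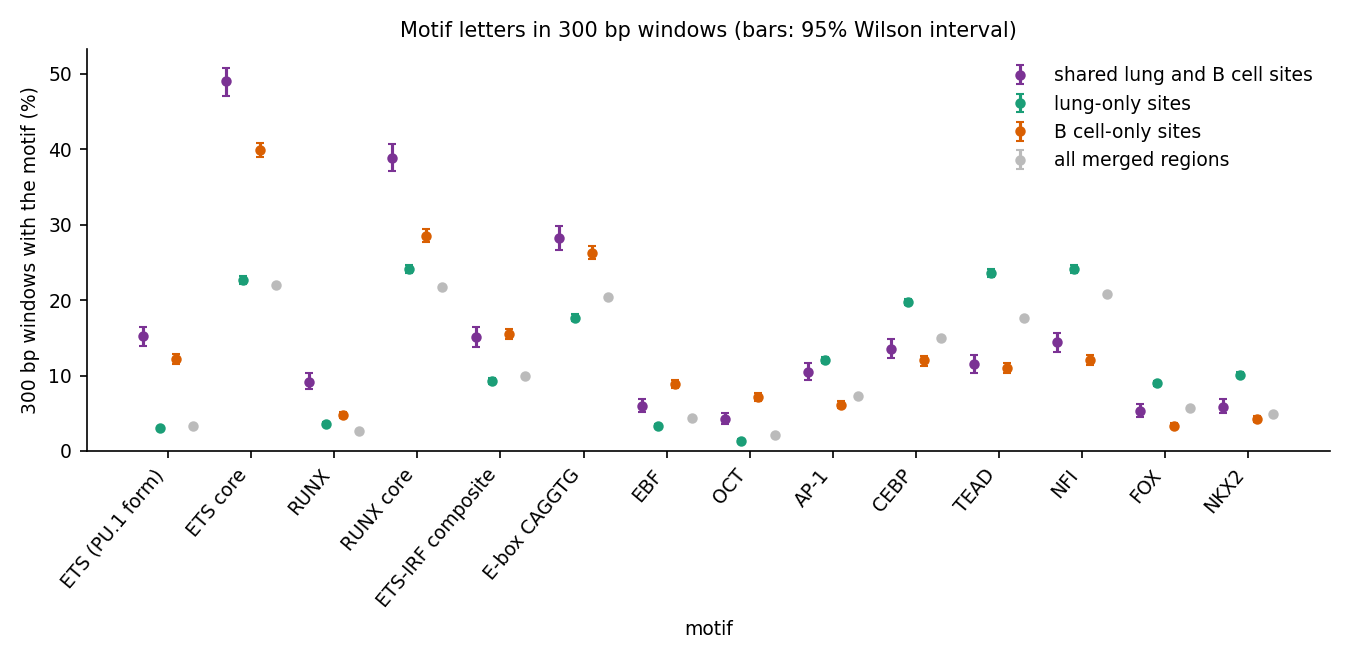
Percentage of 300 bp windows that hold each of 14 motifs of the 28 searched on both strands, with 95% Wilson intervals, for shared sites (purple), lung-only sites (green), B cell-only sites (orange) and all merged regions (grey). The PU.1 form, the ETS core and both RUNX forms are highest in shared sites, OCT and EBF in B cell-only sites, and TEAD, NFI, FOX, NKX2 and CEBP in lung-only sites. The ETS-IRF composite is close in shared (15.1%) and B cell-only sites (15.5%).

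Base composition moved with the classes as well. The median GC content of the window was 47.7% in shared, 46.0% in lung-only and 45.3% in B cell-only sites. Within each of 5 bands of GC content the PU.1 form was more frequent in shared than in lung-only sites, with 16.1% against 1.81% under 40% GC and 9.92% against 3.27% at 55% or more. Against B cell-only sites it was more frequent in 4 of the 5 bands, and at 55% GC or more the shares were 9.92% of 252 shared and 10.1% of 505 B cell-only sites. RUNX was higher in shared sites than in both other classes in all 5 bands. With the 75000 highest hotspots per set, the order held for both motifs although few members were the same: the PU.1 form stood in 18.3% of shared, 3.16% of lung-only and 13.1% of B cell-only sites, and the RUNX core in 37.1%, 22.6% and 30.4%.

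Most shared sites were far from promoters, which was also so for most merged regions. Only 121 of 2783 (4.35%, 3.65 to 5.17%) lay within 1 kb of a protein-coding start, against 2.63% of lung-only (2.45 to 2.82%), 2.93% of B cell-only (2.62 to 3.28%), 5.05% of all regions and 31.0% of sites of all 4 tissues. The middle of the site was in an intron of a protein-coding gene at 52.6%, in an exon at 5.14% and between genes at 42.2%. Yet the sites kept nearer to genes than either single-tissue class: the median distance to a start was 20989 bp, against 34100 and 25240 bp, and 24.7% lay more than 50 kb away, against 40.3% and 32.0%. Measured from the 300 bp window, which has 1 width in every class, the share within 1 kb was 3.56% (2.93 to 4.31%), and its interval overlapped that of B cell-only sites (2.74%, 2.44 to 3.07%). With the 75000 highest hotspots per set, 10.6% of shared sites lay within 1 kb of a start.

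Most shared sites had no hotspot in mESCs, which was also so for most merged regions. A stem cell DNase hotspot overlapped 6.14% of shared sites (5.31 to 7.10%), against 4.14% of lung-only, 3.16% of B cell-only and 77.9% of sites of all 4 tissues, and 9.47% of all merged regions. A stem cell CTCF hotspot, which marks binding of the insulator protein CTCF, overlapped 2.52% (2.00 to 3.17%), against 1.29%, 4.15% and 62.5%, and 7.95% of all merged regions. Wider regions meet more hotspots, and the merged regions were wider in shared sites (median 627 bp) than in lung-only (327 bp) or B cell-only sites (359 bp). In the 300 bp window alone the stem cell DNase share was 4.78%, 3.90% and 2.75%, and the CTCF share 1.65%, 1.12% and 3.82%, and the order of the 3 classes held for both. The intervals of shared and lung-only windows met, at 4.05 to 5.64% and 3.68 to 4.14% for DNase and at 1.24 to 2.20% and 1.0 to 1.25% for CTCF. Over the windows of all merged regions the shares were 9.37% for DNase and 7.74% for CTCF. The shares of shared sites depend on the hotspots taken: with the 75000 highest per adult set they were 16.8% for DNase and 8.93% for CTCF, and with the 20000 highest stem cell hotspots 0.539% and 0.144%.

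Shared sites had other hotspot classes as neighbours more often than all regions did. Within 10 kb of the middle, 35.3% had a B cell-only site, against 9.26% of lung-only sites and 10.0% of all regions, and 28.8% had a lung-only site, against 23.6% of B cell-only sites and 22.7% of all regions. A site of all 4 tissues lay within 10 kb of 52.2%, against 31.9% of lung-only sites, 46.8% of B cell-only sites and 31.9% of all regions. Another shared site lay within 10 kb of 458 (16.5%), and the median distance to the next was 90.1 kb. Density ran from 0.817 per Mb on chromosome 14 to 1.63 per Mb on chromosome 19. The 100 kb windows with the most sites had 5 each, on chromosome 1 at 128600001 to 128700000, which holds no protein-coding gene, on chromosome 3 over Pag1, on chromosome 11 over Grap, Slc5a10 and Fam83g, on chromosome 17 over Ccr6 and Mpc1, and on chromosome 18 over Alpk2.

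Shared sites were then assigned to genes. Of 20807 autosomal protein-coding genes, 1820 (8.75%) had 1 or more shared sites in the gene or within 10 kb of it. Foxp1, a forkhead repressor needed for B cell development, had the most among genes with sites nearest to their own start, with 15 in a 617 kb window that also held 13 lung-only and 19 B cell-only sites. All 15 lay inside the gene (chromosome 6, 98925338 to 99522721, reverse strand), 87.3 to 515 kb from its outermost start, each in 3 to 5 lung and 3 to 5 B cell sets, and 2 of them in all 10. Gm20388 (16 sites), Gm20696 (11) and Gm37240 (6) are long gene models that run over other genes, Gm20696 over Foxp1, and none had a site nearest to its own start. Lpp, a focal adhesion protein gene, had 9 sites and Bcar3, an adaptor of adhesion signalling, had 7, of which 5 were in all 10 sets.

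In shorter windows, the densest genes by sites per kb among the 20 with the most sites were Grap, Ccr6 and Fam78a. Ccr6, the receptor of the chemokine CCL20 on B and T cells, had 5 sites in 41.1 kb with no lung-only and 3 B cell-only sites. Its site at 8243498 to 8244603 on chromosome 17, in an intron at an inner start, was 339, 259, 493, 384 and 330 bp wide in lung and 574, 352, 641, 450 and 341 bp in B cells of B6x129, B6xC3H, B6xCAST, B6xPWK and B6xSPRET. B cells had the wider hotspot in each hybrid there. Grap, an adaptor protein of antigen receptor signalling, had 5 sites in 39.5 kb and Ppp3cc, a catalytic subunit of the phosphatase calcineurin, 4 in 91.6 kb. Prkcb, the protein kinase C of B cell receptor signalling, and Arhgef3 had 5 each.

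Among 13 gene lists, 7 had a higher share of genes with a shared site than all genes, with intervals above 8.75%, and these were lists of blood and immune genes. Of 32 haematopoietic transcription factors 18 had a site (56.2%, 39.3 to 71.8%), led by Foxp1 with 15, with 3 each at Fli1 and Runx1, 2 each at Ets1, Elf1, Etv6, Rel, Nfatc1 and Zeb2, and 1 each at 9 others, among them Irf8, Myb, Ikzf1 and Runx3. Of 20 cytokine and chemokine receptors 9 did (45%), with 5 at Ccr6, 3 at Il21r and 1 at Cxcr4, and of 40 pan-leukocyte genes 16 (40%), with 3 each at Ptprc, the gene of the leukocyte phosphatase CD45, Cytip and Dock8. The share was 33.3% for 18 antigen presentation genes, among them Ciita with 2 sites, 32.0% for 25 genes of NF-kB, TNF and Toll-like receptor signalling, 30.8% for 26 B lineage genes and 28.0% for 25 macrophage and myeloid genes, among them Itgam and Siglecf with 1 each. It was 14.3% for 14 nephron, 13.6% for 22 endothelial, 12.5% for 24 T and NK cell and 7.69% for 26 lung epithelial genes, whose intervals all hold the 8.75% of all genes. No shared site lay by any of 16 fibroblast and smooth muscle genes (0%, 0 to 19.4%) or 14 hepatocyte genes (0%, 0 to 21.5%).

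Window length differs between lists and was not adjusted for, so the other 2 classes, counted in the same windows, are given beside. Lung epithelial genes had a lung-only site at 84.6% and a B cell-only site at 15.4%, and pan-leukocyte genes at 37.5% and 67.5%. Haematopoietic transcription factors had a median window of 89.2 kb, against 37.6 kb for all genes, and held lung-only and B cell-only sites at 65.6% each, against 40.8% and 22.8% of all genes. Per Mb of window they held 10.8 shared sites, against 1.65 for all genes.

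**Figure D4:**
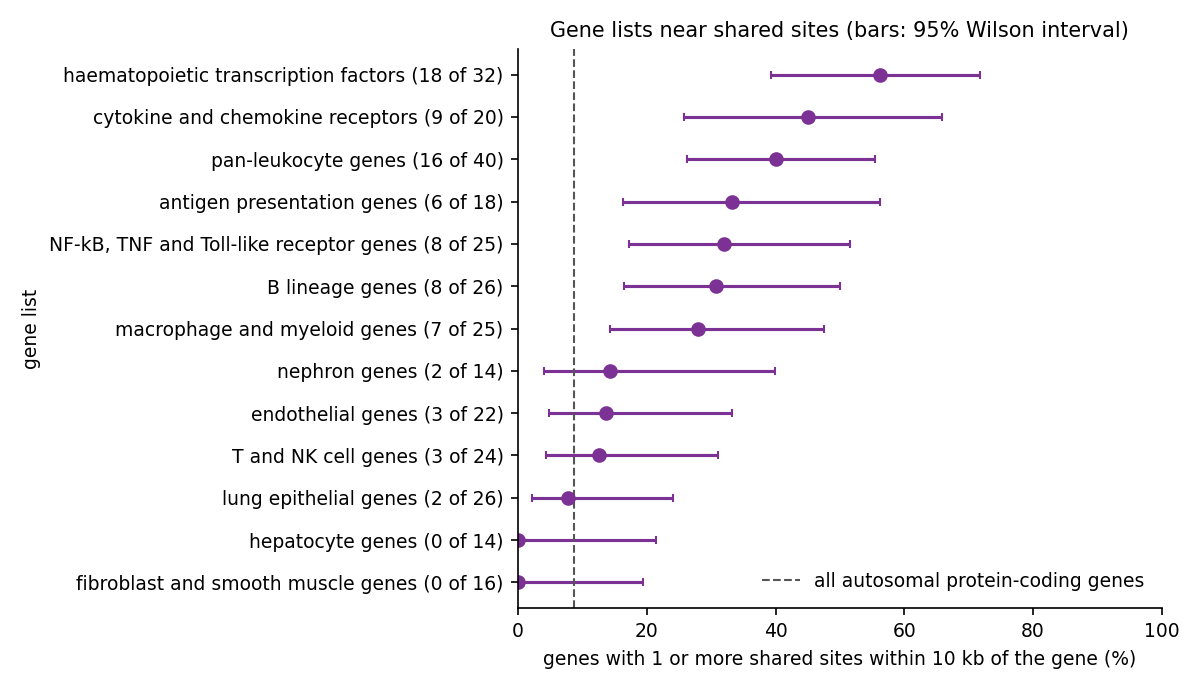
Percentage of the autosomal protein-coding genes of each of 13 lists with 1 or more shared sites in the gene or within 10 kb, with 95% Wilson intervals, and the 8.75% of all such genes as a dashed line. Haematopoietic transcription factors are highest at 56.2%, and lung epithelial genes lie at 7.69%.

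At starts, 121 shared sites touched or neared 115 genes, 14 of them in a list. The listed genes also included Fcer2a, the low-affinity IgE receptor of B cells, Tnfrsf13b, a receptor of B cell survival factors, Zap70, the kinase of the T cell receptor, Cd80, a costimulatory ligand, Lta, a TNF family cytokine, Traf1 and Ptpn6. The Irf8 site, 24.1 kb downstream of that gene's start and inside the gene model Gm20388, was 900 to 1769 bp wide in the 5 B cell sets and 83, 291 and 223 bp in lung of B6x129, B6xCAST and B6xPWK, with no lung hotspot in B6xC3H or B6xSPRET.

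A few sites scored well above the set's median in lung too. The Cst11 site (chromosome 2, 148763578 to 148764900) had a −log10 FDR of at least 22.0 in each lung set, where the medians over all hotspots were 3.97 to 5.46, and of at least 48.2 in each B cell set, where they were 5.65 to 7.51. The ranking of sites by the lowest score over the 10 sets depends on the depth of those sets. The Kcna2 site (chromosome 3, 107076454 to 107077143) was 315 to 532 bp wide in lung and 381 to 534 bp in B cells, and the 2 ranges overlapped. A site in an intron of Serinc5 (chromosome 13, 92638580 to 92640228) was 424 to 933 bp in lung and 1030 to 1612 bp in B cells, with no overlap, and one near Serp2 (chromosome 14, 76579518 to 76580422) was 638 to 769 bp and 453 to 905 bp. These were exceptions, since only 5 of the 473 sites in all 10 sets had a lowest −log10 FDR of 10 or more, and the median of the lowest was 2.34.

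RNA-seq was used to ask whether genes near shared sites had higher RNA in lung and B cells than in liver and kidney. By the labels, lung, liver and kidney had 1 B6xPWK, 2 B6xSPRET and 1 B6xC3H sample each and B cells 1 B6xCAST, 2 B6xPWK, 1 B6xC3H and 1 B6xSPRET, so B6x129 had none. The study's supplement lists the B6xCAST B cell sample under B6xC3H, and it was kept by its label and left out of the fit with hybrid as a covariate. The libraries held 283725 to 809337 expected counts each, and 73.7 to 90.4% of these fell on genes that have an exon on the strand opposite to another gene's exon. The cause was not tested, so a value belongs to the row of a gene in the table and was not read as the level of its transcript. In edgeR's quasi-likelihood test, with 4 lung and 5 B cell against 4 liver and 4 kidney samples, 320 of the 1815 genes near shared sites that the tables hold passed the filter on low counts and 142 of them (44.4%) were higher at an adjusted p under 0.05, against 29.0% of the 2507 protein-coding autosomal genes tested. Lower were 56 (17.5%), against 27.6%. The test compares the mean of lung and B cells with that of liver and kidney, so a gene can be called through 1 tissue alone. The median log2 fold change was 0.63 near shared sites and 0.10 over all tested genes. Taken alone, lung was higher than liver and kidney for 104 of the 320 (32.5%, against 24.6% of all tested genes) and B cells for 144 (45%, against 33.1%), in 2 comparisons that share the liver and kidney samples. Higher in each of the 2 comparisons were 62 of the 320 and lower in each 22, and the same counts over all tested genes were not made. Lung and B cells differed from each other, in either direction, for 189 of the 320 (59.1%, against 52.5%). Genes with lung-only sites were higher at 30.9% of 1225 and genes with B cell-only sites at 38.3% of 732, and the 3 sets share genes.

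The share near shared sites stayed above that of all tested genes in each alternative run, but the counts moved. Without genes that have opposite-strand exons it was 76 of 150 (50.7%, against 35.7%), with limma on log2(TPM + 1) 243 of 320 (75.9%, against 63.8%), and without the filter on low counts 244 of 1692 (14.4%, against 7.76%). With DESeq2's size factors the median of all tested genes was 0.26 and that near shared sites 0.79, both above the values with TMM scaling.

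Of the 56 genes named by the rule for genes, 10 could be tested, 6 were higher and 1 lower. Over all 2507 protein-coding autosomal genes tested, 29.0% were higher and 27.6% lower, and 10 genes are too few to compare with these shares. Values under about 10 CPM rest on few counts at these depths. Ankrd11, a chromatin regulator with 5 sites, had 407, 476, 373, 453 and 448 CPM in the 5 B cell libraries and 75.8 to 164 CPM in lung, against 0 to 48.5 in liver and 11.3 to 21.2 in kidney. Lung and B cells lay above every liver and kidney library (log2 fold change 3.49, SE 0.30, adjusted p = 6.8e-10), although this gene has opposite-strand exons. Ebf1, the B lineage factor gene with 3 shared and 20 B cell-only sites, had 18.9 to 42.2 CPM in B cells, 0 to 11 in lung, 0 in every kidney library and 0 to 9.70 in liver (adjusted p = 0.00108), and its fold depends on the prior count because of the libraries at 0. Arhgef3 had 15.0 to 43.8 CPM in B cells and 5.83 to 19.6 in lung, against 0 to 10.8 in liver and 0 to 10.6 in kidney, with lung overlapping both (log2 fold change 1.69, SE 0.52, adjusted p = 0.00766). Pakap had 15.7 to 46.6 CPM in lung and 7.03 to 40.5 in B cells, 9.31 to 14 in kidney and 0 in every liver library (adjusted p = 0.000456), again with a fold that depends on the prior count. Fli1, an ETS factor gene with 3 sites, was not called (log2 fold change 0.11, SE 0.18, adjusted p = 0.648 in edgeR). It had 55.9 to 79.3 CPM in kidney, 0 in every liver library, 0 to 7.77 in lung and 3.33 to 10.8 in B cells. Its fold also depends on the prior count. 

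Psmb9, an immunoproteasome subunit gene in the MHC, had 52.7 to 141 CPM in B cells and 23.6 to 37.3 in lung, against 5.19 to 58.2 in liver and 6.21 to 9.35 in kidney (log2 fold change 1.78, SE 0.35, adjusted p = 0.000150 in edgeR). Fcer2a had 28.4 to 48.6 CPM in B cells, 9.92 to 20.5 in lung, 0 to 38.8 in liver and 6.21 to 18.1 in kidney (log2 fold change 1.02, SE 0.41, adjusted p = 0.0353 in edgeR). In both genes lung overlapped liver, and every B cell library lay above every kidney library. Cubn, the gene of the kidney and gut receptor cubilin, was lower, with 20.4 to 40.4 CPM in kidney, 5.19 to 21.5 in liver, 0 to 6.30 in lung and 0 to 28.3 in B cells (log2 fold change -1.46, SE 0.58, adjusted p = 0.0345 in edgeR). Ciita, the activator of MHC class II genes, missed the threshold (log2 fold change 1.0, SE 0.43, adjusted p = 0.0506 in edgeR), as did Arhgap26, with 44.1 to 218 CPM in lung and 35.2 to 116 in liver against 4.06 to 10.8 in B cells (adjusted p = 0.377 in edgeR). Samples of different hybrids come from different animals, but the labels do not say whether samples of 1 hybrid and tissue do, so part of the spread behind the p-values may be technical.

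**Figure D5:**
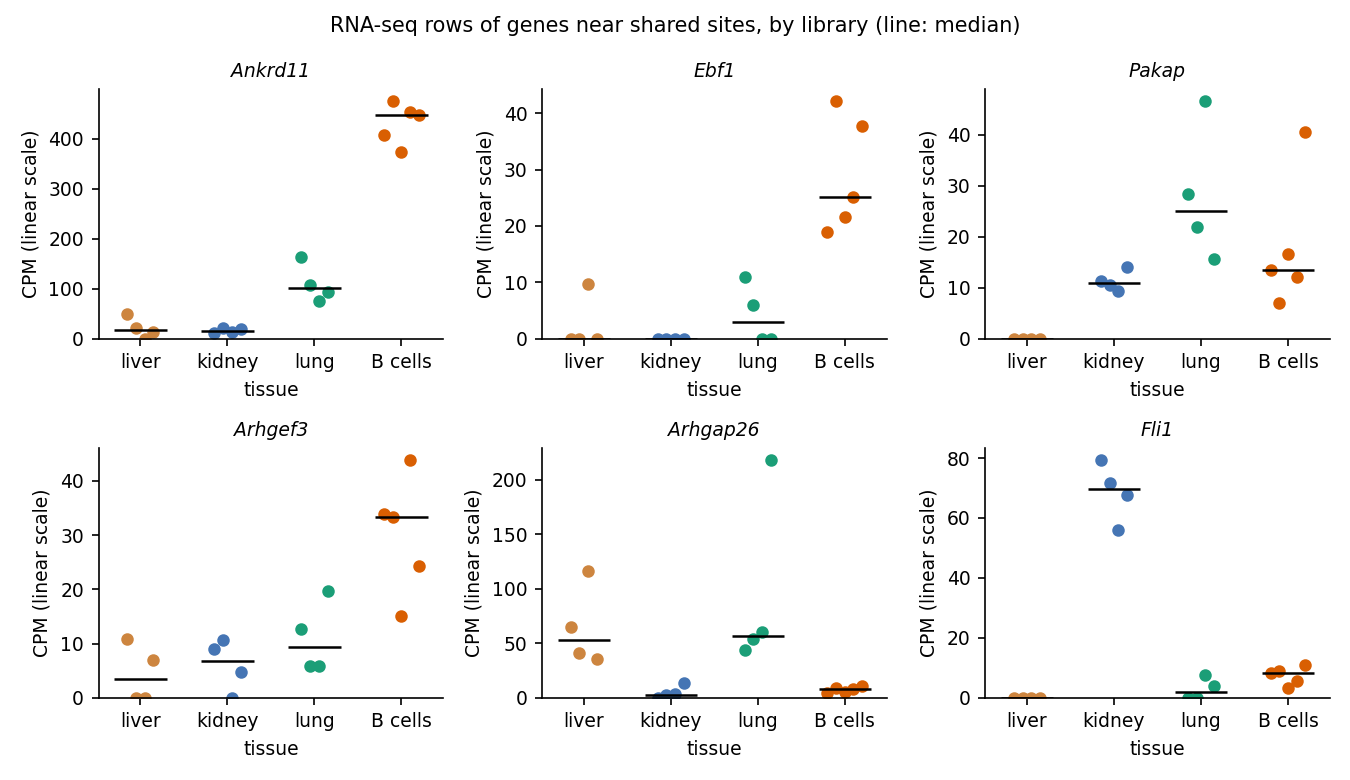
CPM (linear scale, 1 point per library, line at the median) in liver (n = 4), kidney (n = 4), lung (n = 4) and B cells (n = 5) for rows of 6 genes near shared sites, with a separate y scale per gene. For Ankrd11 every lung and B cell point lies above every liver and kidney point, and for Fli1 kidney is highest at 55.9 to 79.3.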

How the data were processed

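DNase-seq, CTCF ChIP-seq and RNA-seq of F1 hybrid mice and mESCs were grouped by the labels. The authors trimmed reads with Trimmomatic, aligned DNase and ChIP reads with BWA to mm10, kept reads with 1 location and a mapping quality of 20 or more, and called hotspots with hotspot2 on reads pooled over the samples of a hybrid and tissue. The deposited BED files give each hotspot's −log10 FDR, with no value per replicate. Whether mESC samples were pooled is not given in the sources used here. For RNA-seq, the authors aligned stranded total RNA with STAR and deposited, for each sample, RSEM tables with every gene's expected count and TPM. Tool names and the build follow the submitters' processing notes and the methods. The depth of DNase sets is not in the hotspot files, and the read totals that the study lists were not used here. In whole organs and pooled reads, a site missing from a set can be a site below the threshold at its depth.

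Regions were merged in Python 3.11.15, with a shared core found as the stretch covered by most sets, and GENCODE vM21 transcripts gave starts of protein-coding genes. Each of 28 motifs was searched on both strands of the 300 bp window in GRCm38.p6. Wilson intervals (95%) stand beside shares. Expected counts were rounded and fitted with edgeR 4.0.16 (filterByExpr, TMM, all 17 samples, mean of lung and B cells against mean of liver and kidney), with DESeq2 1.42.0 and limma 3.58.1 as alternatives, and p-values were adjusted by Benjamini-Hochberg over the 4479 genes tested. Scripts were tested on simulated intervals and counts. Genes named were the 20 with the most shared sites, up to 4 per list, the 10 strongest sites in all sets and the 5 densest 100 kb windows, and others named here were chosen after their values were seen. The members, gene lists and motifs were chosen with earlier results of these data known. Of the 304 listed genes 2 had no autosomal protein-coding match. No sample column was left unused (0). Results of some genes are not reported here.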

Additional observations from a re-analysis of the deposited data

Results flagged for a closer look

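Of 63 groups of 4 or 5 values examined, 7 had a highest value far from the others by Dixon's criterion, and chance picks out about 1 group in 20. Among B cell sets, the median −log10 FDR inside shared sites was 28.6 in B6xCAST, against 6.70 to 12.7 in the others. The size of this score depends on the depth of a set, and B6xCAST B cells had a median of 7.17 over all hotspots, against 5.65 to 7.51 in the other B cell sets. The Cst11 site was 911 bp wide in B6xCAST lung, against 356 to 450 bp in the other lung sets, and the site near Phip (chromosome 9, 83023136 to 83024242) was 1107 bp wide in B6xCAST B cells, against 366 to 574 bp in the other B cell sets. In RNA-seq, the highest CPM stood apart for Arhgap26 in lung (218, B6xC3H), Ebf1 in liver (9.70, B6xSPRET), Pakap in B cells (40.5, B6xSPRET) and Psmb9 in B cells (141, B6xC3H). The Ebf1 value in liver, where the median was 0, rests on few counts. Of the 10 tested genes named, 7 differed between lung and B cells in their change over liver and kidney in edgeR's quasi-likelihood test of the difference (B cells n = 5, lung n = 4, adjusted p from 4.8e-06 to 0.0385), as did 52.5% of all 2507 protein-coding autosomal genes tested. Arhgap26 was higher in lung, by a log2 difference of 3.69 (lung minus B cells), and the others were lower in lung: Ankrd11 (-1.96), Arhgef3 (-1.44), Ebf1 (-2.60), Fcer2a (-1.12), Psmb9 (-1.45) and Cubn (-1.95). On chromosome X, which the rule leaves out, 67 of 31351 merged regions met it (0.214%), against 0.390% of autosomal regions.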

How the results depend on the processing

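The number of shared sites was 5220 with 2 of 5 sets required per tissue, 473 with 5 of 5, and 1610 to 2722 with 1 hybrid left out and 3 sets still required. The share near a start was 4.28 to 4.91% with 1 hybrid left out, 10.6% with the 75000 highest hotspots per set, 18.0% within 5 kb and 3.56% on the 300 bp window, an alternative chosen after seeing the data. The CTCF share was 1.93 to 3.04% with 1 hybrid left out, 8.93% with the 75000 highest hotspots, 3.30% with 2 of 5 sets, 0.144% with the 20000 highest CTCF hotspots and 1.65% on the window, and the stem cell DNase share was 6.02 to 6.32%, 16.8%, 0.539% with the 20000 highest stem cell hotspots and 4.78% on the window. The PU.1 form stood in 14.7 to 17.1% of sites with 1 hybrid left out, 18.3% with the 75000 highest hotspots, 13.5% around the middle of the merged region and 49.0% as GGAAGT. The count of genes higher in lung and B cell RNA was 122 to 166 with 1 sample left out, 243 with limma, 244 without the filter and 76 without opposite-strand genes, which leaves fewer genes to test, and 152 with DESeq2. Settings not named here stayed within the Wilson interval of the reported share or within 1.5 times the reported count, and for the other moves the cause was not tested. Depth differs between sets, is not in the hotspot files and was not adjusted for, which limits every absence of a hotspot. Individual samples could not be paired between tissues, because the labels give no replicate numbers shared between groups, and tissues were matched only by hybrid. With hybrid as a covariate in 16 samples, 135 of 297 genes near shared sites were higher (45.5%, against 28.9% of all tested genes).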
